A study of Mus musculus with 30 samples.

Results

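The response of Braf V600E mouse thyroid that lacked Smarcb1 to a MEK inhibitor was followed across all expressed genes. It rested on 6 RNA-seq libraries of 28 analysed in the series, 3 from mice given vehicle (libraries 1, 2 and 3) and 3 from mice given CKI, the labels' name for the inhibitor CH5126766 (libraries 1, 2 and 4). Of 33924 genes in the count table, 19016 had enough counts to test. Both groups carried Braf(V600E) together with Smarcb1 KO and were treated for 8 days, with death about 2 h after the last dose. The groups set beside them were Braf(V600E) thyroid with vehicle or CKI, Braf(V600E) thyroid with Arid1a KO and the same treatments, and untreated wild-type thyroid, each with 3 libraries. Every treated group thus carried the Braf mutation, and no group lacked Smarcb1 without it. Age, sex and Cre driver are not in the labels. Nor is it stated that each library is a different mouse, and every p-value here reflects scatter among libraries and may be technical. The series asks whether loss of SWI/SNF subunits bears on tumour progression and on treatment meant to restore thyroid differentiation.

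Braf V600E is a constantly active form of the kinase Braf, which signals through MEK to ERK. In thyroid cells strong ERK signalling drives division and silences the genes for taking up iodide and making hormone, and blocking MEK can bring these genes back. Smarcb1 is a core subunit of SWI/SNF, a complex that opens chromatin, and its loss is known from rhabdoid tumours.

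Levels are given in CPM, read counts scaled to the size of each library with TMM factors. A log2 fold change compares CKI with vehicle, with its standard error (SE), and p-values come from edgeR's quasi-likelihood test with Benjamini-Hochberg adjustment over all 19016 genes. A gene rose or fell here where its adjusted p was under 0.05. The 6 libraries held 23879271 to 34400066 counts each.

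Smarcb1 itself was read first. It stood at 2.28, 10.03 and 17.9 CPM in vehicle libraries 1, 2 and 3 and at 18.1, 47.4 and 11.9 CPM in CKI libraries 1, 2 and 4, against 56.97 to 130.9 CPM in Braf vehicle libraries. All 6 libraries lay below every Braf library. The level was lowest in vehicle library 1 and highest in CKI library 2, and the log2 fold change of 1.36 (SE 0.58) did not pass (adjusted p = 0.21). Several thyroid genes below have their lowest value in vehicle library 1 and their highest in CKI library 2. Whether residual cells with Smarcb1 take part in these values was not tested.

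Epithelial markers were present, at a lower summed level than in Braf or wild-type thyroid. Cdh1, the adhesion protein E-cadherin, stood at 68.8, 119 and 107 CPM with vehicle and rose to 198, 206 and 334 CPM with CKI (log2 fold change 1.33, SE 0.30, adjusted p = 0.0148; 0.0889 without vehicle library 1 and 0.0748 without CKI library 4). It was the 1 called gene of 15 epithelial genes, where 3.85% of all genes tested were called. The 15 summed to 823 to 2917 CPM with vehicle and 932 to 2793 CPM with CKI. The same sum was 6580 to 20730 CPM in Braf vehicle, 9907 to 11630 CPM in Braf CKI and 4242 to 4640 CPM in wild-type libraries. All 6 libraries of Smarcb1 knockout lay below these ranges. Epcam, a surface protein of epithelia, was at 2.05 CPM in vehicle library 1 and at 35.003 to 196 CPM in the other 5 libraries. In bulk samples like these, fewer cells of a type and less RNA per cell cannot be told apart. Preparation may also have differed between these genotypes, as set out below.

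CKI changed 732 genes, 3.85% of those tested. Of these, 342 rose (1.8% of all tested) and 390 fell (2.05%). In 686 of the 732 the vehicle and CKI libraries did not overlap. Over all genes tested, the 3 CKI libraries all lay above the 3 vehicle libraries in 2194 (11.5%) and all below in 1942 (10.2%). The median log2 fold change of all genes was 0.035. The count leans on the spread shared by all 28 libraries: a fit of these 6 libraries alone called 2 genes, Aox3 and Nppc, with 2691 at an unadjusted p under 0.05, and leaving out 1 library gave 233 genes (without vehicle library 1) to 923 (without vehicle library 3).

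All 10 genes with the largest rises had higher levels in every wild-type library than in these vehicle libraries, and with CKI 3 of them passed the wild-type range in every library. Ppp1r1b, an inhibitor of protein phosphatase 1, went from 0.297, 4.67 and 4.55 CPM to 73.4, 223 and 33.9 CPM (log2 fold change 5.12, SE 0.86, adjusted p = 0.00187). Wild-type thyroid had 89.3 to 205 CPM of it. Elovl2, an enzyme that lengthens polyunsaturated fatty acids, rose from 0.293 to 0.712 CPM to between 5.90 and 14.9 CPM (4.31, SE 0.54, adjusted p = 0.000374). The potassium channel gene Kcnh3 (4.05), Rhpn1 (3.86), the thyroglobulin gene Tg (4.65) and the kidney and thyroid cadherin gene Cdh16 (3.77) were also among the 10. Il17rb, a receptor for interleukin 25, rose by 4.90 on the log2 scale to 45.9, 10.4 and 7.90 CPM, below the wild-type level of 62.95 to 86.2 CPM.

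The 3 that passed the wild-type range were Nppc, Kctd4 and Aox3. Nppc, which encodes C-type natriuretic peptide, stood at 7.50, 9.51 and 8.84 CPM with vehicle and at 91.7, 148 and 133 CPM with CKI (log2 fold change 3.85, SE 0.51, adjusted p = 0.000457), against 11.3 to 18.2 CPM in wild type. The 3 CKI libraries lay far above the 3 vehicle libraries. Kctd4 (4.24) and the aldehyde oxidase Aox3 (4.40) also ended above wild type. Aox3 lost its call without vehicle library 1 (adjusted p = 0.0799) or vehicle library 2. Single CKI libraries carried part of the size of others: the log2 fold change was 4.09 for Ppp1r1b, 3.11 for Rhpn1 and 3.13 for Cdh16 without CKI library 2, 3.67 for Il17rb without CKI library 1 and 3.31 for Kctd4 without CKI library 4.

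The largest falls were led by proteases of mast cells and basophils. Mcpt8, a basophil protease, fell from 24.9, 127 and 460 CPM to 2.99, 0.954 and 0.960 CPM (log2 fold change -6.96, SE 1.06, adjusted p = 0.000887). Mcpt2 had 491 counts over the vehicle libraries and 0 over the CKI libraries, which makes it at least 212-fold lower against a floor of 3 counts over the group, and Mcpt1 went from 1929 counts to 5. Mcpt1 and Mcpt2 are related genes of 1 protease family, and whether reads were split between them was not tested. Of 12 mast cell and basophil markers tested, these 3 fell and none rose. The median was -3.44, or -2.85 with the 4 members at 0 counts in a group set at their bound, and -1.26 without vehicle library 2. Fitted values were below 0 for 10 of the 12 and above 0 for 2, the highest at 3.998. Every CKI library lay below every vehicle library in 4 of the 12 and above in 1. The summed level of the 12 went from 31.4 to 530 CPM to between 3.02 and 7.15 CPM. In Braf thyroid 8 of the 12 fell and none rose (median -5.717).

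The remaining large falls were of genes with varied roles. Plac1, a placental gene, went from 26.0, 2.52 and 22.7 CPM to between 0.159 and 0.349 CPM (log2 fold change -6.18, SE 1.04, adjusted p = 0.00404). Lipg, endothelial lipase, fell by 5.42 on the log2 scale from 147, 6.31 and 11.3 CPM, and Chrna1, a subunit of the muscle acetylcholine receptor, by 5.29 from 20.6, 1.80 and 33.3 CPM. For each of these, vehicle library 2 was the lowest of the vehicle libraries. Without vehicle library 1 the log2 fold change of Lipg was -2.77 (adjusted p = 0.0333), and without vehicle library 3 that of Chrna1 was -4.56, that of Mcpt8 -5.54, that of Mcpt1 -7.46 and that of Chi3l3 -3.84. Lce1g, a gene of the cornified envelope, had 517 counts with vehicle and 2 with CKI, a ratio of 309 with a 95% interval of 85.2 to 2560 that covers counting error only. Calls of Lce1g, Tmprss11bnl (-6.15), Chi3l3 (-4.74) and Csn3 (-4.74) were each lost when any of 4 or 5 of the libraries was left out, with adjusted p up to 0.0786 (without CKI library 2), 0.201 (without vehicle library 2), 0.161 (without CKI library 1) and 0.15 (without CKI library 4).

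Thyroid differentiation genes rose in part. Of 16 genes for iodide handling, hormone synthesis and thyroid transcription, 6 rose and none fell, and the median log2 fold change was 0.96, against 0.035 for all genes. Without vehicle library 2 the median was 1.61, and without vehicle library 1 it was 0.57. The thyroid score, their mean log2(CPM + 1), was 1.61, 2.38 and 2.38 with vehicle (2.12 ± 0.44, SD, n = 3) and 3.28, 3.52 and 3.13 with CKI (3.31 ± 0.20, SD, n = 3). Wild-type thyroid had 5.91 ± 0.30 (SD, n = 3), and Braf thyroid went from 2.80 ± 0.51 to 5.23 ± 0.30 (SD, n = 3 each). The CKI libraries of Smarcb1 knockout thus lay above all their vehicle libraries and below every Braf CKI library.

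Tg encodes thyroglobulin, the protein scaffold on which thyroid hormone is made. It stood at 14.2, 114 and 71.4 CPM with vehicle and at 1884, 1901 and 1214 CPM with CKI (log2 fold change 4.65, SE 0.75, adjusted p = 0.00137). It kept its call without any 1 of the 6 libraries (highest adjusted p = 0.00682). Wild type had 58871 to 155494 CPM, so the treated level was far below it.

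The transcription factors split. Pax8, which drives thyroid development, rose from 102, 78.0 and 53.8 CPM to 208, 272 and 253 CPM (log2 fold change 1.65, SE 0.36, adjusted p = 0.0119), with no overlap. Foxe1, needed for the gland to form, rose from 0.0297, 0.163 and 0.513 CPM to 1.51, 2.12 and 0.614 CPM (2.60, SE 0.59, adjusted p = 0.0149), and lost its call without vehicle library 1 (0.068), vehicle library 2 (0.0669) or CKI library 2 (0.069). Nkx2-1 was at 2.55, 6.67 and 13.8 CPM with vehicle and 14.8, 16.9 and 15.9 CPM with CKI, and did not pass (1.05, SE 0.44, adjusted p = 0.198). Glis3 and Hhex, other factors of thyroid development, did not pass either, with log2 fold changes of 0.18 and 0.64.

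Tshr, the receptor for thyroid-stimulating hormone, rose from 1.45, 3.14 and 5.35 CPM to 8.92, 14.3 and 16.1 CPM (1.99 in log2 fold change, SE 0.43, adjusted p = 0.0105; 0.0666 without vehicle library 1). The thyroid hormone receptor gene Thra rose from 3.47, 4.71 and 3.59 CPM to 11.6, 8.54 and 11.1 CPM (1.41, SE 0.33, adjusted p = 0.0191; 0.0874 without vehicle library 1 and 0.0675 without CKI library 1). Its relative Thrb did not pass (0.62, adjusted p = 0.685).

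Genes for moving iodide and building hormone mostly did not pass. Slc5a5, the sodium iodide symporter that brings iodide into the cell, stood at 36.5, 10.7 and 30.6 CPM with vehicle and at 17.5, 22.4 and 46.2 CPM with CKI. The groups overlapped and the log2 fold change was 0.15 (SE 0.99, adjusted p = 0.959). Duox1 and Duox2, which make the hydrogen peroxide for hormone synthesis, did not pass (-0.02 and 0.81). They were at or under 0.523 CPM in all 6 libraries, against 4.48 to 12.04 and 21.8 to 79.1 CPM in wild type. Dio1, which activates thyroid hormone, was at 0.237, 5.10 and 1.36 CPM with vehicle and 7.47, 19.5 and 2.94 CPM with CKI (2.16, SE 0.89, adjusted p = 0.193). Dio2 (-0.05), Slc26a4 (0.86) and Slc5a8 (0.68) did not pass.

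Of 13 further thyroid genes tested, 5 rose and none fell (median 1.70, or 2.36 without vehicle library 3). Cdh16 went from 0.504, 5.88 and 3.81 CPM to 37.3, 80.3 and 21.6 CPM (log2 fold change 3.77, SE 0.59, adjusted p = 0.00111). Iyd, which recycles iodide from used hormone precursors, rose from 5.31, 23.6 and 41.8 CPM to 124, 274 and 48.1 CPM (2.66, SE 0.54, adjusted p = 0.00745; 1.88 and 0.061 without CKI library 2). Duoxa2 (2.76), a maturation factor for Duox2, Slc26a7 (2.52), an anion carrier, and Fcgbp (2.94, or 2.34 without vehicle library 1) also rose. Duoxa2 and Slc26a7 each lost their call when any of 4 libraries was left out (adjusted p up to 0.153 without CKI library 2 and up to 0.143 without vehicle library 1). Without vehicle library 1, 3 of the 16 differentiation genes and 3 of these 13 were called, and without CKI library 2 it was 5 and 2.

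**Figure D1:**
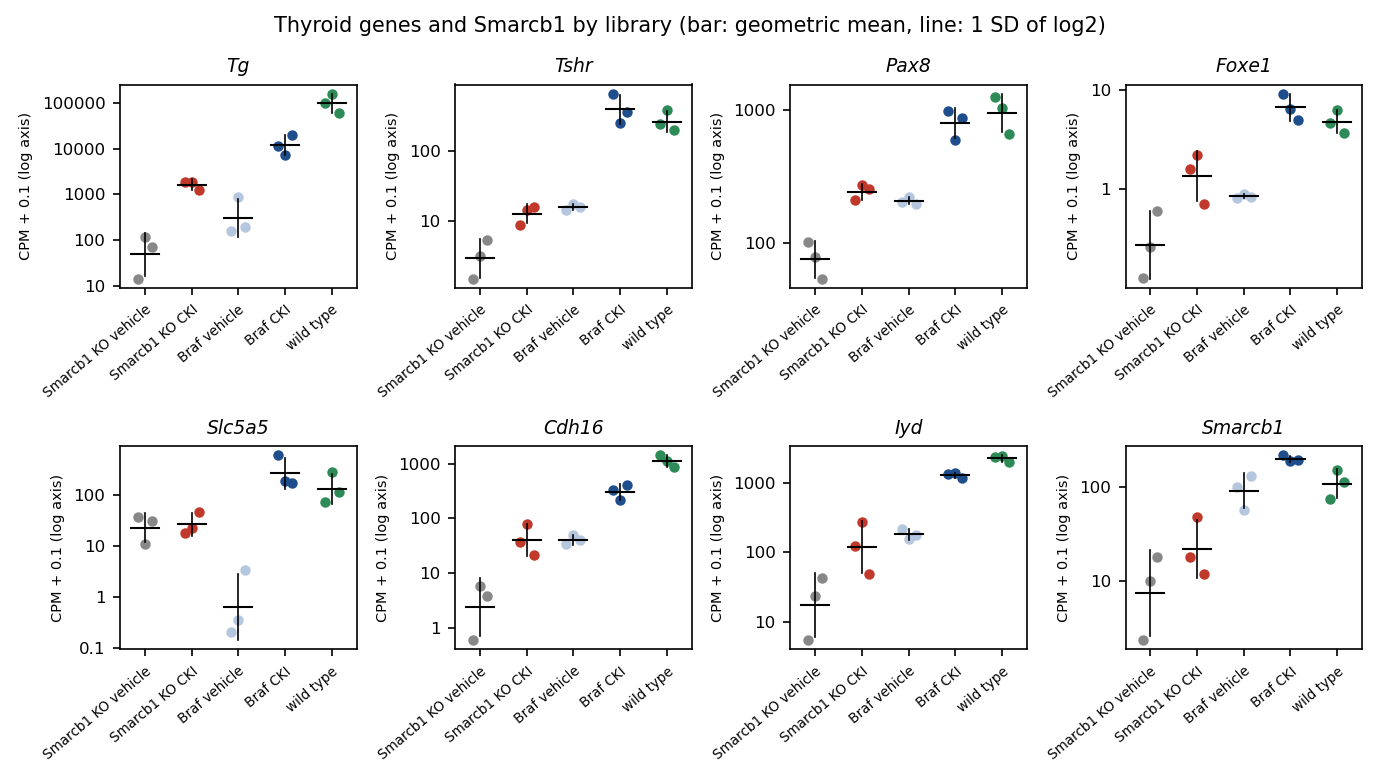
CPM + 0.1 on a log axis for 7 thyroid genes and Smarcb1 in each library of 5 groups. Points are libraries, bars geometric means and lines 1 SD of log2 values. Tg, Tshr, Pax8, Foxe1, Cdh16 and Iyd were higher with CKI than with vehicle in Smarcb1 knockout (Smarcb1 KO) and stayed below Braf with CKI, while Slc5a5 overlapped between the 2 treatments.

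The thyroid response was set against that of Braf thyroid without the knockout. One text of the labels says that wild-type and Smarcb1 thyroids were frozen whole and another that YFP+ cells were sorted, both on every sample, so preparation may differ between genotypes and cannot be told apart from genotype. Wild-type libraries held 4214 to 14840 CPM of parathyroid markers and 8418 to 32730 CPM of C cell markers. In Smarcb1 knockout these sums reached at most 91.3 and 281 CPM. A test of the difference in log2 fold change called 58 of 19016 genes (0.305%). The log2 fold change in Smarcb1 knockout was higher for 21 of them (0.11%) and lower for 37 (0.195%). A lower value can mean a smaller rise or a deeper fall than in Braf. Slc5a5 was among the 37: Braf went from between 0.102 and 3.26 CPM to between 171 and 605 CPM, and the difference was -7.88 (SE 1.59, adjusted p = 0.0311). The vehicle level of Slc5a5 in Smarcb1 knockout lay above that of Braf vehicle and below that of Braf with CKI. Leaving out 1 library at a time, 6 of 12 removals ended this call (highest adjusted p = 0.11, without CKI library 1 of Smarcb1 knockout).

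Tshr differed by -2.70 (SE 0.59, adjusted p = 0.0448), with 14.5 to 17.4 CPM in Braf vehicle and 248 to 635 CPM in Braf CKI libraries. Its call was lost in 10 of 12 removals (adjusted p up to 0.153, without Braf CKI library 1). No other gene of the 2 thyroid lists was called. The median difference was -0.55 for the 16 genes and -0.13 for the 13. On simulated counts this test found 8% of 4-fold changes and 0% of 2-fold changes, so a missing call does not show equal responses. Tg had nearly equal log2 fold changes, 4.65 and 4.94, from different vehicle levels (161 to 894 CPM in Braf), and Pax8 had 1.65 and 1.98. Against Braf thyroid with Arid1a KO, no member of the 16 or of the 13 was called, and the Slc5a5 difference of -6.92 had an adjusted p of 0.0657.

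Outputs of the MAPK pathway fell in part. Of 19 genes that ERK signalling is known to induce, 6 fell and none rose, and the median log2 fold change was -1.04. In Braf 3 of the 19 rose and 3 fell, with a median of 0.465, so the list as a whole did not fall there. Vehicle and CKI libraries of Smarcb1 knockout did not overlap in 11 of the 19, 10 of them lower with CKI. Over all genes tested, 10.2% were lower without overlap. The 6 were Etv4, Etv5, Spry4, Spred1, Spred2 and Ccnd1.

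Etv5, an ETS transcription factor, stood at 54.5, 110 and 38.2 CPM with vehicle and at 12.03, 7.53 and 7.44 CPM with CKI (log2 fold change -2.91, SE 0.48, adjusted p = 0.00173). Its relative Etv4 went from 12.8, 19.5 and 8.80 CPM to 2.82, 2.39 and 1.20 CPM (-2.68, SE 0.61, adjusted p = 0.0164; lost without vehicle library 2, CKI library 2 or CKI library 4, with adjusted p of 0.058, 0.0558 and 0.0716). Neither gene had overlapping groups. Etv1, the other member of this subgroup, did not pass (-1.04, adjusted p = 0.0627).

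Spry4, an inhibitor that ERK induces against its own pathway, fell from 226, 184 and 113 CPM to 31.8, 21.6 and 48.1 CPM (log2 fold change -2.36, SE 0.46, adjusted p = 0.00519). Spred2, an inhibitor of Ras signalling, fell by 1.70 on the log2 scale (adjusted p = 0.0115; 0.0785 without vehicle library 2 and 0.0743 without CKI library 1). Spred1 fell by 0.92 (adjusted p = 0.0317), and lost its call when any of 4 libraries was left out (up to 0.141 without vehicle library 1). Spry1 (-0.66) and Spry2 (-0.47) did not pass.

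The ERK phosphatases were lower in every CKI library for Dusp5 and Dusp6, and neither passed. Dusp6, a common readout of ERK activity, stood at 442, 399 and 302 CPM with vehicle and at 150, 182 and 121 CPM with CKI (log2 fold change -1.33, SE 0.45, adjusted p = 0.101). Dusp5 had -1.11 (adjusted p = 0.0931) and Dusp4 -1.93 (adjusted p = 0.156). Myc (-0.92), Fosl1 (-0.80), Ier3 (-0.96), Epha2 (-1.17), Epha4 (0.23) and Phlda1 (0.11) did not pass. Egr1, an early ERK target that also responds to tissue handling, was at 219, 626 and 788 CPM with vehicle and 1033, 947 and 2530 CPM with CKI, and did not pass (1.47, SE 0.63, adjusted p = 0.222).

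**Figure D2:**
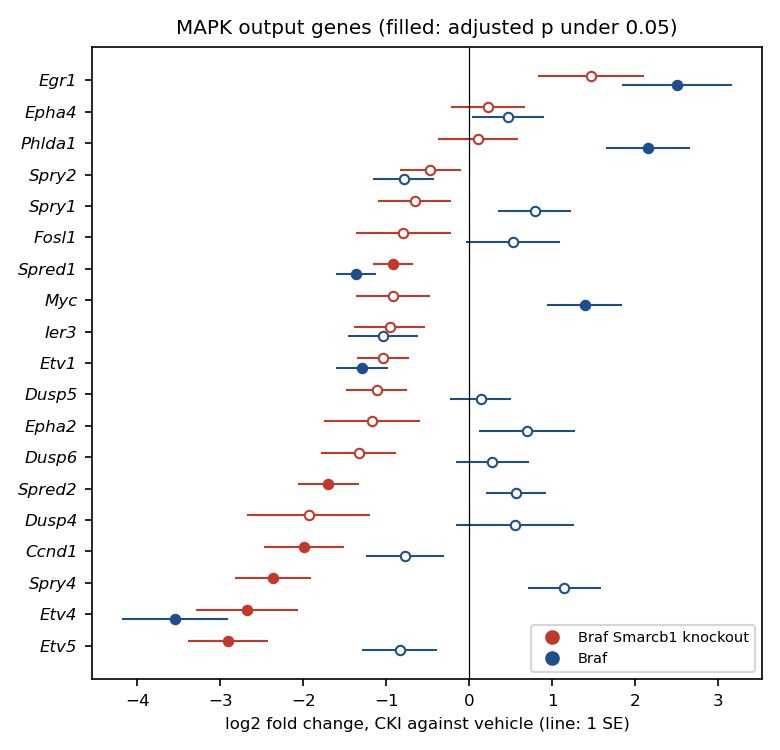
Log2 fold change of CKI against vehicle, with 1 SE, for 19 MAPK output genes in Braf Smarcb1 knockout (red) and Braf (blue). Filled points have an adjusted p under 0.05. Of the 19 red points 16 lie below 0, while the median of the blue points is 0.465. Spry4 is among the genes that lie on opposite sides of 0 in the 2 genotypes.

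Spry4 was the 1 gene of this list whose response differed from Braf (-3.51, SE 0.63, adjusted p = 0.0165; 0.056 without CKI library 2 of Smarcb1 knockout). Braf libraries held 7.69 to 22.0 CPM of Spry4 with vehicle and 21.3 to 45.4 CPM with CKI. The high Spry4 level was therefore that of the Smarcb1 knockout vehicle libraries, and CKI libraries of both genotypes had similar ranges. Upstream in the pathway, the Ras regulator Rasa1 fell from 73.0, 50.9 and 67.4 CPM to 17.8, 17.9 and 16.5 CPM (-1.87, SE 0.24, adjusted p = 0.000374). Nras fell by 0.91 (adjusted p = 0.0211; up to 0.18, without vehicle library 1), and these were the 2 called of 15 pathway kinases and Ras genes. The ligand gene Btc fell by 1.56 (adjusted p = 0.00518), 1 of 18 ligands, and Fgfr2 rose by 2.31 (adjusted p = 0.00944; 0.0555 without CKI library 2), 1 of 19 receptors. Of all genes tested 3.85% were called, so 1 call among 18 ligands or 19 receptors does not set either list apart.

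Part of the cell division genes fell. Of 23 genes of DNA replication, 9 fell and none rose (median log2 fold change -1.33), and of 22 mitosis genes 11 fell and none rose (median -2.54). All fitted values of both lists were below 0. At an unadjusted p under 0.05, 22 of the 23 and 22 of the 22 were lower, against 3373 of all 19016 genes in either direction. DESeq2 called 15 of the 23 and 21 of the 22, against 1571 of 29357 genes. Every CKI library lay below every vehicle library in 15 of the 23 and 18 of the 22, against 10.2% of all genes. In Braf the medians of the same lists were -0.37 and 0.001.

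Ccne2, the cyclin that starts DNA replication, stood at 35.7, 24.1 and 18.5 CPM with vehicle and at 4.48, 4.14 and 4.83 CPM with CKI (log2 fold change -2.54, SE 0.40, adjusted p = 0.00111). Rrm2, which supplies DNA building blocks, fell from 188, 246 and 49.2 CPM to 13.8, 18.7 and 27.6 CPM (-3.01, SE 0.60, adjusted p = 0.00654). Both genes and the clamp loader Rfc4 (-1.62) kept their calls without any 1 library. Vehicle library 3 was the lowest of the vehicle libraries for Ccne2 and Rrm2.

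Mcm5, Mcm7, Cdc45 and Gins1, parts of the replication helicase, with Rrm1 and Uhrf1, were also among the 9. Their log2 fold changes ran from -1.23 (Mcm7) to -2.25 (Uhrf1). Each lost its call without vehicle library 1, with adjusted p between 0.108 and 0.252. Ccnd1, the cyclin by which ERK signalling starts the cycle, went from 1498, 1732 and 600 CPM to 335, 368 and 261 CPM (-1.99, SE 0.49, adjusted p = 0.0228), and without vehicle library 1 its adjusted p was 0.0858, with values over the threshold also without 4 others.

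Among mitosis genes, Kif23, needed to separate daughter cells, went from 88.7, 78.1 and 31.8 CPM to 5.46, 7.21 and 12.4 CPM (log2 fold change -2.99, SE 0.63, adjusted p = 0.01; 0.0609 without CKI library 1). Ube2c (-3.46), Ccnb1 (-3.22), Birc5 (-3.06), Ccnb2 (-2.83), Kif11 (-2.79), Tpx2 (-2.55), Bub1b (-2.53), Cdca8 (-2.26), Aurka (-2.21) and Cdc20 (-2.02) were the other 10. Mki67, the usual proliferation marker, was at 27.6, 35.8 and 15.99 CPM against 3.28, 3.29 and 11.0 CPM, without overlap, and did not pass (-2.18, adjusted p = 0.0979). The number called rested on single libraries: 0 mitosis genes were called without CKI library 1, 1 without vehicle library 1 or CKI library 2, 2 without vehicle library 2 and 17 without vehicle library 3. The median of the list moved less, from -2.20 (without vehicle library 1) to -3.15 (without CKI library 4).

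The cycle inhibitors Cdkn1a (0.74) and Cdkn1b (0.86) did not pass, although for both every CKI library lay above every vehicle library. Of 17 regulators of the entry into the cycle, Ccnd1 and Ccne2 alone were called. The responses of Ccne2 and Cdc20 differed from those in Braf, by -2.81 (SE 0.55, adjusted p = 0.0244; lost in 8 of 12 removals, up to 0.0866 without CKI library 2 of Smarcb1 knockout) and -4.06 (SE 0.75, adjusted p = 0.017; lost in 4 of 12, up to 0.0721 without CKI library 1). Braf vehicle libraries already had low levels, 3.26 to 4.38 CPM of Ccne2 and 2.80 to 8.26 CPM of Cdc20.

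**Figure D3:**
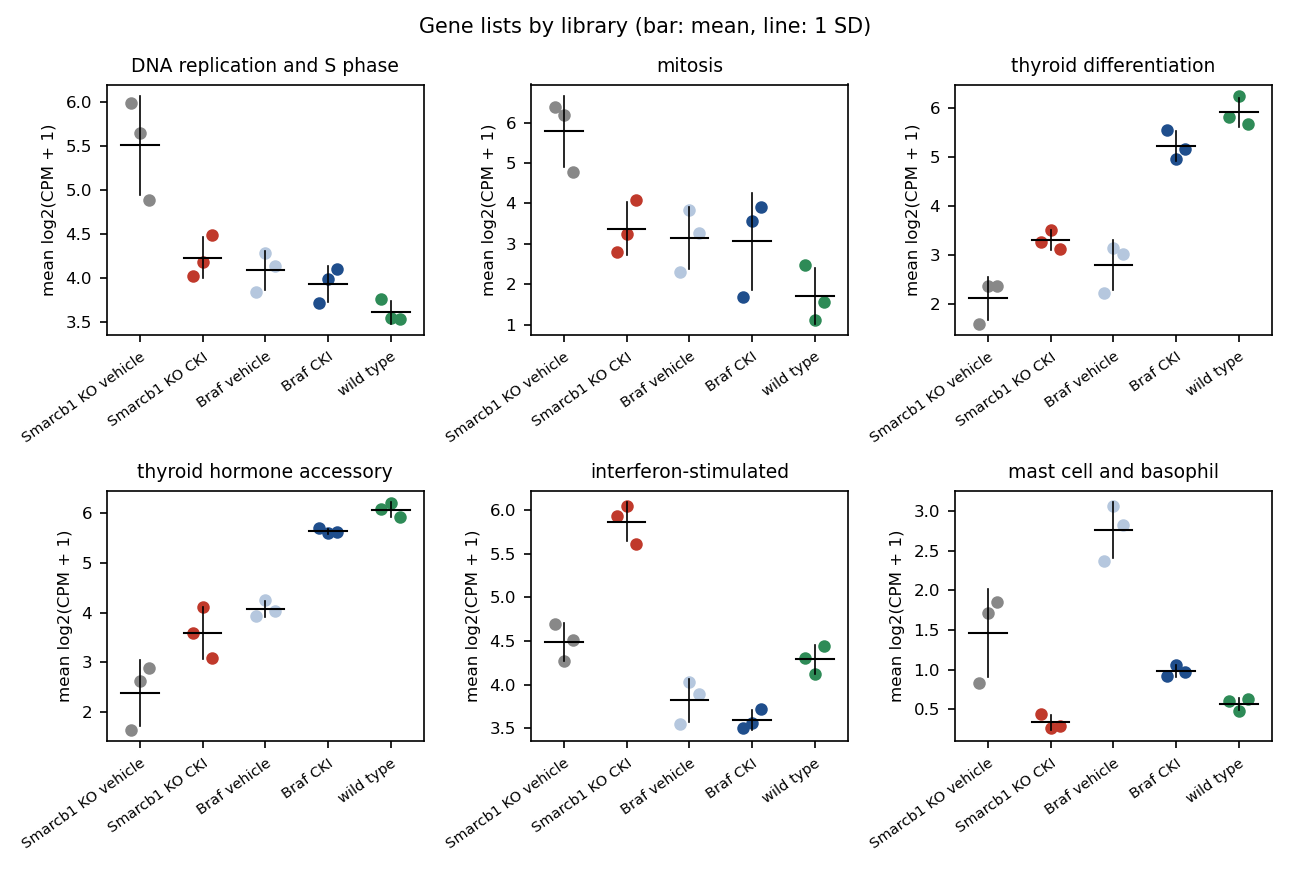
Mean log2(CPM + 1) of 6 gene lists in each library of 5 groups; points are libraries, bars means and lines 1 SD. With CKI, Smarcb1 knockout (Smarcb1 KO) libraries were lower than with vehicle for replication and mitosis (means of 4.24 against 5.51 and of 3.37 against 5.79) and had the highest mean of the 5 groups for interferon-stimulated genes, 5.87.

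Many interferon-stimulated genes rose. Of 30 such genes, 17 rose and none fell, with a median log2 fold change of 1.47, and in 26 every CKI library lay above every vehicle library, against 11.5% of all genes. Their summed level was 982 to 1419 CPM with vehicle and 3032 to 4317 CPM with CKI. These genes are switched on when interferon receptors activate a complex that includes Stat2 and Irf9, and many carry an interferon-stimulated response element in their promoters. Its core was taken as GAAA, any 2 bases, then GAAA. The upstream promoter bases of 3 of the called genes are shown because their element is repeated there (RefSeq, GRCm38.p6, read in the direction of the gene, capitals mark matches on either strand). Ifit1 is at chr19:34640773-34640825 on the plus strand, Ifit3 at chr19:34583361-34583428 on the plus strand and Isg15 at chr4:156200863-156200908 on the minus strand.
Ifit1: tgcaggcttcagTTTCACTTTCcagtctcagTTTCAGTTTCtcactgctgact
Ifit3: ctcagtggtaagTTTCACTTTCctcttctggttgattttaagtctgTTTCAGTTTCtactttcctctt
Isg15: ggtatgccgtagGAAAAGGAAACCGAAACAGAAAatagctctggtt

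The matches begin 104 and 85 bases before the start of Ifit1, 156 and 122 before that of Ifit3, and 78 to 66 before that of Isg15, where 3 matches overlap. The core was sought on both strands in windows of 300 bases, 250 before and 50 after the start, and a gene with several starts counted once if any window held it. Of the 17 called genes, 13 had a promoter window, and 5 of these held a match (38.5%): Ifit1, Ifit3, Isg15, Rsad2 and Stat2. Of the 13 genes of the list that were not called, 9 had a window and 7 held a match (77.8%), against 3.83% of 12087 tested genes with a window. The match thus did not separate called from uncalled members. The STAT motif TTCNNNGAA, which reads the same on both strands, was in 1 of the 13 called windows (7.69%) and in 8.5% of all, the AP-1 motif TGANTCA in 4 (30.8%) and in 7.31% of all, and the ETS motif CCGGAAGT in 0, against 7.12% of all.

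Among factors that drive these genes, Irf7, Irf9 and Stat2 rose. Irf7, the main amplifier of the interferon response, stood at 63.1, 33.99 and 41.2 CPM with vehicle and at 258, 415 and 152 CPM with CKI (log2 fold change 2.58, SE 0.37, adjusted p = 0.000604). The groups did not overlap, and the call held without any 1 library. Irf9 rose by 1.32 (adjusted p = 0.00203) and Stat2 by 1.46 (adjusted p = 0.0154; up to 0.0716 without CKI library 1, and lost also without vehicle libraries 1 and 3).

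Ifit1, Ifit3 and Isg15 were among the 17 that rose. Ifit1, which binds viral RNA, stood at 105, 58.2 and 104 CPM with vehicle and at 512, 633 and 249 CPM with CKI (log2 fold change 2.38, SE 0.44, adjusted p = 0.00419). Ifit3, its partner, went from 68.6, 41.2 and 80.1 CPM to 268, 601 and 137 CPM (2.405, SE 0.44, adjusted p = 0.00374; 1.69 and 0.0291 without CKI library 2). CKI library 4 was the lowest of the 3 for both and still lay above all vehicle libraries. Isg15, a small protein that is attached to others, rose from 52.0, 31.2 and 60.0 CPM to 210, 163 and 75.9 CPM (1.65, SE 0.37, adjusted p = 0.0142; 0.0514 without vehicle library 1, 0.0661 without vehicle library 2 and 0.0868 without CKI library 1).

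Usp18, Rtp4 and Oasl1 also rose. Usp18, which removes Isg15 and dampens receptor signalling, went from 36.4, 19.2 and 29.9 CPM to 113, 179 and 95.8 CPM (log2 fold change 2.18, SE 0.35, adjusted p = 0.00137). Rtp4 went from 38.6, 20.4 and 30.1 CPM to 123, 141 and 71.9 CPM (1.91, SE 0.29, adjusted p = 0.000795). Oasl1 rose from 10.02, 8.20 and 7.81 CPM to 39.9, 43.7 and 54.1 CPM (2.402, SE 0.52, adjusted p = 0.0112). Oasl2 (2.01) and Mx2 (2.26) rose and kept their calls without any 1 library. Cmpk2 (2.67), Rsad2 (1.49), Xaf1 (1.33), Ifi35 (0.88) and Herc6 (0.86) were also among the 17, and each lost its call without 2 to 5 of the libraries, with adjusted p up to 0.209 (Ifi35, without CKI library 2). Between 11 members (without CKI library 1) and 18 (without CKI library 4) were called when 1 library was left out, and 10 were called in every such fit.

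Members that did not pass included Ifit2 (0.20, adjusted p = 0.891), Mx1 (-0.51, adjusted p = 0.765) and Zbp1 (0.11, adjusted p = 0.932). Of 14 interferon genes, receptors, sensors and kinases tested, 0 were called by edgeR or DESeq2 and 1 had an unadjusted p under 0.05 (median 0.07). Ifnb1, the interferon beta gene, had 8 counts over the vehicle libraries and 16 over the CKI libraries. Ifng was at or under 0.55 CPM in all 6. These counts are too few to compare the groups.

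Of 20 genes of the interferon gamma and guanylate-binding group, 6 rose and none fell (median 0.82). Irf1, the transcription factor, went from 205, 174 and 89.4 CPM to 649, 760 and 323 CPM (log2 fold change 1.88, SE 0.40, adjusted p = 0.0103). Among GTPase genes, Igtp (1.85), Irgm1 (1.63), Irgm2 (1.77) and Gbp6 (3.12) rose and kept their calls without any 1 library, while Iigp1 (1.87, adjusted p = 0.0495) lost its call when any of 4 libraries was left out (up to 0.25 without CKI library 2). Cxcl9 and Cxcl10, chemokines that interferon gamma induces, did not pass (0.78 and -0.25). Of 13 class I antigen presentation genes, H2-T23 (1.497, adjusted p = 0.0203) and H2-Q4 (1.48, adjusted p = 0.0413) rose, and of 7 class II genes 0 were called by edgeR or DESeq2 and 0 had an unadjusted p under 0.05. Calls of H2-T23 and H2-Q4 were lost without 3 and 5 of the libraries (adjusted p up to 0.0786 without vehicle library 2 and 0.14 without vehicle library 1). The Ifit, Irgm, Gbp and H2 genes belong to families with near-identical copies, so their separate values are uncertain.

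Leukocytes also express these genes. Leukocyte markers summed to 98.7 to 296 CPM with vehicle and 82.1 to 136 CPM with CKI, with 0 of 7 called by edgeR or DESeq2, 1 at an unadjusted p under 0.05, and all 7 fitted values below 0. Macrophage markers summed to 259 to 470 CPM and 208 to 383 CPM, with 0 of 11 called by either tool and 3 at an unadjusted p under 0.05. The ranges of these sums overlapped between vehicle and CKI, and such sums cannot show which cells expressed the interferon-stimulated genes. Immediate early and handling-stress genes summed to 9757 to 12820 CPM with vehicle and 21980 to 24840 CPM with CKI. In 14 of 17 every CKI library lay above every vehicle library, against 11.5% of all genes. Only Nr4a1 of these passed (1.56, adjusted p = 0.046), and its call was lost when any 1 of the 6 libraries was left out (up to 0.197 without CKI library 4). The part of leukocytes, macrophages and handling stress in the results was not tested.

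**Figure D4:**
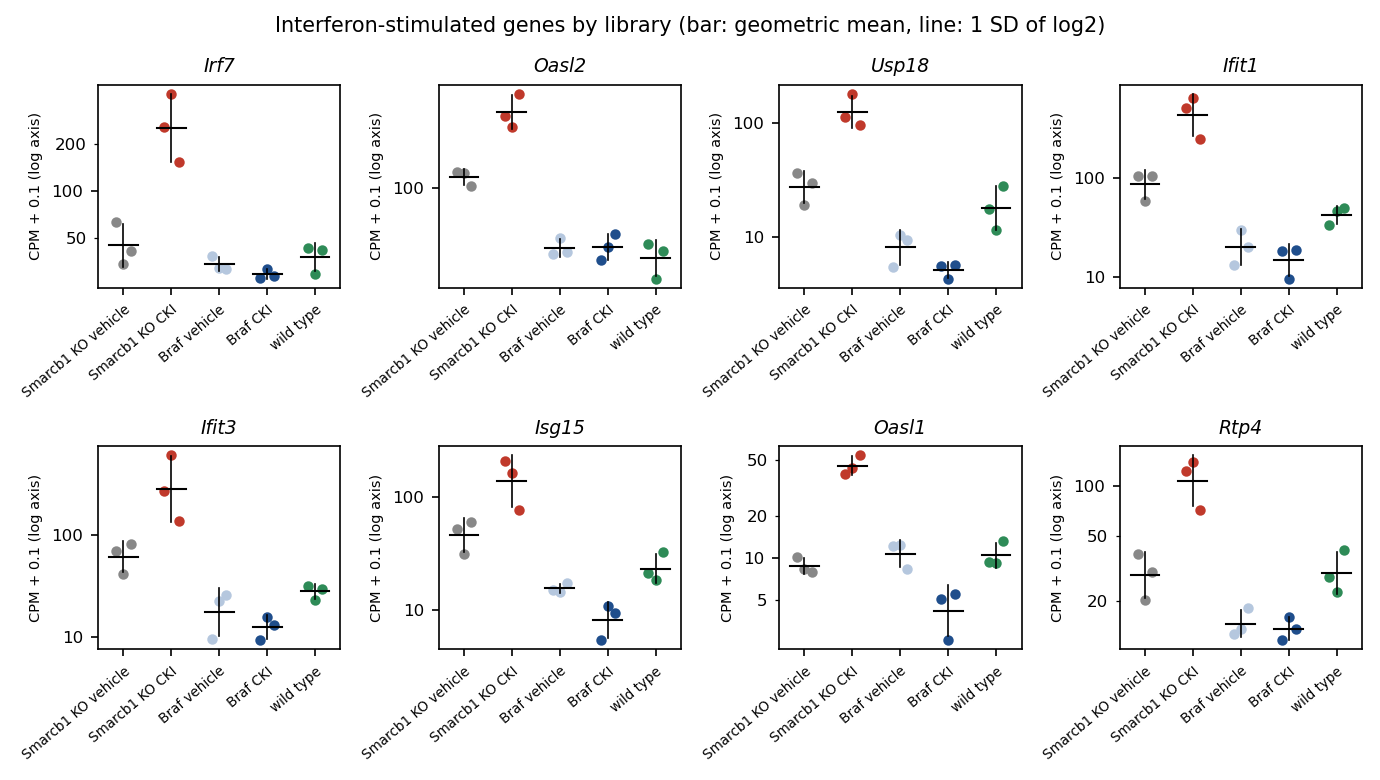
CPM + 0.1 on a log axis for 8 interferon-stimulated genes in each library of 5 groups. Points are libraries, bars geometric means and lines 1 SD of log2 values. For all 8 genes the 3 CKI libraries of Smarcb1 knockout (Smarcb1 KO) lay above all libraries of the other 4 groups.

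In Braf thyroid 2 of the 30 genes rose and 2 fell (median -0.26). The response differed between the genotypes for 8 genes, all with a higher log2 fold change in Smarcb1 knockout. Among them were Oasl1 (3.72), Ifit3 (3.01), Usp18 (2.88), Ifit1 (2.83), Irf7 (2.79), Isg15 (2.52) and Rtp4 (2.02). Of all genes tested, 0.11% were called with a higher log2 fold change. Irf7 went from 31.5 to 38.0 CPM in Braf vehicle to 27.5 to 31.4 CPM in Braf CKI libraries (difference SE 0.50, adjusted p = 0.0152; 0.056 without CKI library 2 of Smarcb1 knockout). Usp18 was the 1 member whose difference (SE 0.49, adjusted p = 0.0112) was called in all 12 removals of a library. The other 5 of those named had adjusted p of 0.0244 to 0.0446 and lost the call in 6 to 10 of the 12 removals, with values up to 0.152 (Ifit1, without Braf CKI library 4). H2-T23 also differed (2.31, adjusted p = 0.0448), and lost the call in 11 of 12 (up to 0.136 without vehicle library 2 of Smarcb1 knockout).

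The same test against Braf thyroid with Arid1a KO called 42 genes (0.221%), 21 in each direction (0.11% and 0.11%). These 2 sets of differences share the 6 Smarcb1 knockout libraries. Irf7 (2.73, adjusted p = 0.0173) and Ifit1 (2.92, adjusted p = 0.0486) were among the 21 with a higher log2 fold change in Smarcb1 knockout. Irf7 lost this call in 4 of 12 removals (up to 0.0721 without CKI library 2 of Smarcb1 knockout) and Ifit1 in 9 (up to 0.142 without Braf Arid1a vehicle library 3). H2-Q4 (2.76) and Ccnd2 (-2.09) also differed, with adjusted p of 0.0486 and 0.0213. They lost the call in 11 of 12 removals (up to 0.102 without Braf Arid1a CKI library 5) and in 4 of 12 (up to 0.0747 without Braf Arid1a vehicle library 3).

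**Figure D5:**
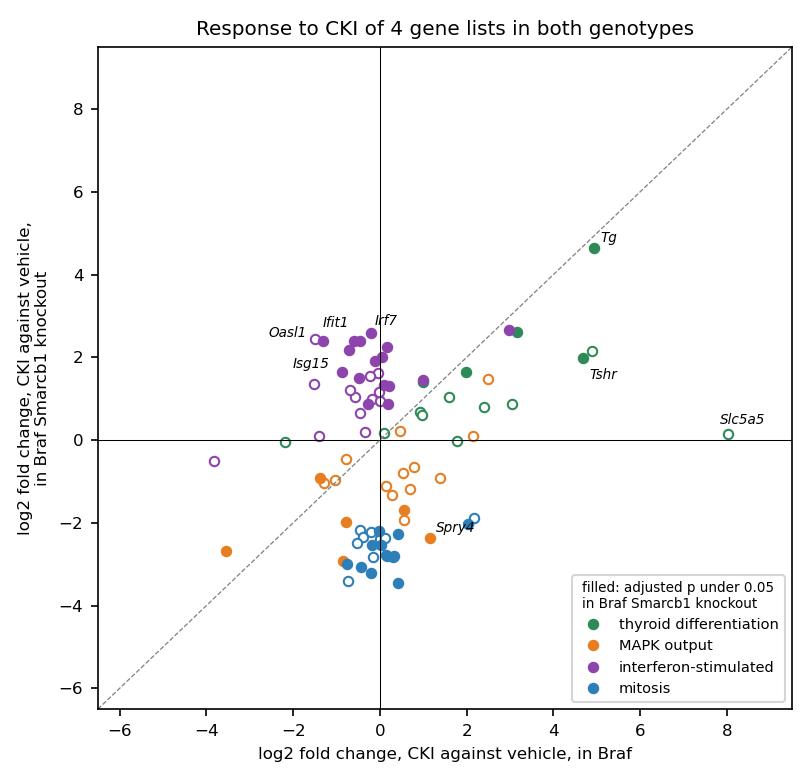
Log2 fold change of CKI against vehicle in Braf (horizontal) and in Braf Smarcb1 knockout (vertical) for genes of 4 lists, filled where the adjusted p in Smarcb1 knockout is under 0.05; the dashed line marks equal responses. Tg lies near the line (4.94 and 4.65), Slc5a5 far below it (8.03 and 0.15), and most interferon-stimulated genes above it.

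Among genes with a higher log2 fold change than in Braf, Gstm1 had the smallest p. Gstm1, which conjugates glutathione, stood at 64.6, 86.2 and 126 CPM with vehicle and at 280, 545 and 486 CPM with CKI in Smarcb1 knockout (log2 fold change 2.24, SE 0.29, adjusted p = 0.000374). In Braf it was at 272 to 405 CPM and 257 to 273 CPM, and the difference was 2.55 (SE 0.40, adjusted p = 0.00921). Ephx1, an epoxide hydrolase, rose from 113, 111 and 159 CPM to 340, 427 and 899 CPM (2.12, SE 0.30, adjusted p = 0.000604), with a difference from Braf of 2.35 (SE 0.42, adjusted p = 0.0152). For both genes the vehicle libraries of Smarcb1 knockout lay below all Braf vehicle libraries. With CKI, Gstm1 lay above all Braf CKI libraries, while Ephx1 overlapped their range of 249.7 to 458.3 CPM. Lgals3bp, a secreted binding partner of galectins, completes the 5 with the smallest p (2.82, SE 0.52, adjusted p = 0.0167; 0.0544 without Braf CKI library 1).

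Among genes with a lower log2 fold change than in Braf, Elovl6, which lengthens saturated fatty acids, had the smallest p (difference -3.39, SE 0.43, adjusted p = 0.00104). It stood at 88.8, 53.2 and 53.8 CPM with vehicle and at 43.9, 45.0 and 32.9 CPM with CKI in Smarcb1 knockout, and did not pass there (-0.69, adjusted p = 0.219). In Braf it went from 25.0 to 28.7 CPM to 148 to 229 CPM. Bcl2, which protects cells from apoptosis, followed the same order: 43.7, 90.5 and 46.8 CPM against 27.9, 49.9 and 21.4 CPM in Smarcb1 knockout, and 7.23 to 14.4 CPM against 74.0 to 105 CPM in Braf (difference -3.79, SE 0.54, adjusted p = 0.0045). Slc26a10, an anion exchanger relative, differed by -4.39 (SE 0.67, adjusted p = 0.00739), the amino acid carrier Slc38a1 by -2.18 (SE 0.35, adjusted p = 0.00981) and the cholesterol ester hydrolase Nceh1 by -2.34 (SE 0.39, adjusted p = 0.0107). All 5 differences were called in each of the 12 removals. Within Smarcb1 knockout, Slc38a1 (-1.74, adjusted p = 0.000637) and Nceh1 (-1.86, adjusted p = 0.000795) fell.

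Against Braf Arid1a knockout, Gstm1 had the smallest p (3.38, adjusted p = 0.00047). Ccdc37 (5.57), Gnaz (2.84) and Tspan4 (2.27) also had a higher log2 fold change in Smarcb1 knockout. Acpp (-4.85), Il1rap (-3.78), Gmnn (-2.94), Nceh1 (-2.49) and Lbh (-3.66) had a lower one, which can mean a deeper fall. Acpp, an acid phosphatase, fell from 71.1, 76.3 and 138 CPM to 17.5, 12.3 and 7.90 CPM with CKI (log2 fold change -2.92, SE 0.45, adjusted p = 0.000997). Lbh, a transcriptional cofactor, fell from 29.2, 24.1 and 32.7 CPM to 1.74, 1.67 and 5.04 CPM (-3.34, SE 0.45, adjusted p = 0.000457). Gmnn, the replication licensing inhibitor geminin, did not pass within Smarcb1 knockout (-0.96, adjusted p = 0.0733).

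Developmental and chromatin genes gave a few calls. Of 22 Hox genes tested, Hoxa2 (3.06), Hoxa5 (3.17), Hoxc4 (3.01) and Hoxb5 (1.82) rose and none fell (median 1.74). Hoxa5 went from 2.79, 4.38 and 3.78 CPM to 43.0, 30.3 and 24.9 CPM (SE 0.79, adjusted p = 0.0258), against under 1.0 CPM in wild type. In 12 of the 22 every CKI library lay above every vehicle library, against 11.5% of all genes. All 4 lost their calls without vehicle library 1, with adjusted p of 0.102, 0.124, 0.0596 and 0.125, and 3 of them without others too. The Polycomb gene Cbx7 rose by 2.17 (adjusted p = 0.01; 0.0611 without vehicle library 1), 1 of 19, and the SWI/SNF subunit gene Actl6a fell by 0.95 (adjusted p = 0.0392; up to 0.264 without vehicle library 1), 1 of 27. Of all genes tested 3.85% were called, so 1 call in a list of this size does not set the list apart. Hmga2, a chromatin protein of embryonic tissue, fell from 129, 82.0 and 96.8 CPM to 12.1, 14.2 and 19.7 CPM (-2.74, SE 0.39, adjusted p = 0.000604), 1 of 11 oncofetal genes.

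Of 18 matrix proteases and their inhibitors, 4 fell and 1 rose. Timp1, an inhibitor of matrix metalloproteinases that ERK signalling is known to induce, went from 2213, 1910 and 1415 CPM to 365, 242 and 118 CPM (log2 fold change -2.93, SE 0.60, adjusted p = 0.0074). Mmp10 (-5.62), Plaur (-1.98) and Plat (-1.25) also fell, and Mmp11 (1.70) rose. All but Timp1 lost their calls without vehicle library 1 and others (highest adjusted p of 0.0711, 0.152, 0.192 and 0.182). Of 18 collagens, 0 were called by edgeR, with 3 at an unadjusted p under 0.05, and 2 by DESeq2.

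Of the apoptosis genes few were called. Casp8, the caspase of death receptors, fell from 328, 252 and 229 CPM to 75.2, 93.2 and 95.4 CPM (log2 fold change -1.62, SE 0.24, adjusted p = 0.000828). Bmf, which binds and blocks Bcl2 proteins and triggers cell death, rose from 0.682, 2.78 and 2.53 CPM to 15.6, 9.76 and 8.70 CPM (2.51, SE 0.49, adjusted p = 0.00559). Of 16 genes tested, 1 rose and 2 fell. Of 23 glycolysis and hypoxia genes, Slc2a1 (-1.35), the glucose carrier, Pgk1 (-1.17) and Pkm2 (-1.25) fell, and all lost their calls without vehicle library 1 (adjusted p of 0.24, 0.137 and 0.237).

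Several lists had single calls or none, where 3.85% of all genes tested were called. Fdps of 21 sterol and fatty acid genes (-0.95), Asns of 22 genes of the unfolded protein response (-1.21) and Cycs of 22 respiratory chain genes (-0.94) fell, each lost without vehicle library 1 and others (adjusted p up to 0.179, 0.232 and 0.197). Pmp22 rose by 1.03, the 1 call of 6 nerve markers (adjusted p = 0.0473; up to 0.2 without vehicle library 1). No gene was called in the lists for TGF-beta signalling (14 tested), mesenchymal transition (14), keratinization (12), neuronal genes (18), chemokines (20), inflammation (19) and surfactant (17); 3, 1, 3, 2, 4, 4 and 1 of them had an unadjusted p under 0.05, and DESeq2 called 1, 0, 3, 0, 2, 2 and 1. Markers of macrophages, T and NK cells, B cells, neutrophils, dendritic cells, endothelium, fibroblasts, smooth muscle, skeletal muscle, fat, parathyroid, C cells, red cells and cartilage gave no call by edgeR, with 11 of 118 at an unadjusted p under 0.05. DESeq2 called 1 of these markers, of neutrophils. Fibroblast markers summed to 1696 to 2818 CPM with vehicle and 1558 to 13980 CPM with CKI, and endothelial markers to 158 to 186 CPM and 108 to 110 CPM.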

How the data were processed

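The authors deposited read counts per gene (whole numbers, not normalized) for 33924 genes. The submitters' processing notes name STAR 2.4, HTSeq 0.6.1, DESeq2 and build mm9, with no roles given. The kit was TruSeq RNA, per the labels, strand not stated, so overlapping genes may share reads. Of 30 labelled samples, 28 were analysed here. Replicates differed by more than sampling noise.

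Genes were filtered with filterByExpr, scaled by TMM and fitted in 1 edgeR 4.0.16 quasi-likelihood model (R 4.3.3) with a term for each group over 28 libraries. The fit was tested on simulated counts of 18335 genes: for CKI it found 51% of changes that were 4-fold and 5% of those that were 2-fold (3 false calls), and for the difference from Braf 8% and 0%. Alternatives are given at the end. Limits on depth cover counting error only.

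Members, 52 gene lists and rules were chosen with earlier results of these data known. Named are Smarcb1, the 10 largest rises and falls (adjusted p under 0.05, at least 5 CPM in the higher group, no overlap of libraries), thyroid and MAPK list members, up to 6 called members of other lists or what their count needs, and for differences of response the 5 smallest p in each direction (no overlap rule) with called thyroid, MAPK and interferon members. Predicted genes, pseudogenes, receptor segments and small RNAs were left out. At least 1 gene taken by this rule is left unreported. Ccnd2, Cdc20, Ccne2, H2-T23 and H2-Q4 were named in differences after their values were seen.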

Additional observations from a re-analysis of the deposited data

Results flagged for a closer look

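Each result here was singled out because a test of the difference in response between 2 genotypes passed (edgeR's quasi-likelihood test, adjusted p under 0.05). Differences are in log2 fold change, Smarcb1 knockout minus the other genotype, and no explanation was tested. Against Braf, the log2 fold change in Smarcb1 knockout was higher for Gstm1 (2.55), Usp18 (2.88), Ephx1 (2.35), Irf7 (2.79), Lgals3bp (2.82), Ifit1 (2.83), Ifit3 (3.01), Isg15 (2.52), Oasl1 (3.72) and Rtp4 (2.02). It was lower for Elovl6 (-3.39), Bcl2 (-3.79), Slc26a10 (-4.39), Slc38a1 (-2.18), Nceh1 (-2.34), Slc5a5 (-7.88), Tshr (-2.70) and Spry4 (-3.51). Within Smarcb1 knockout itself, Slc38a1 (-1.74), Nceh1 (-1.86) and Spry4 (-2.36) fell and Tshr (1.99) rose, so a lower value is not always a weaker response.

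Against Braf Arid1a knockout, it was higher for Gstm1 (3.38), Ccdc37 (5.57), Gnaz (2.84), Tspan4 (2.27), Irf7 (2.73) and Ifit1 (2.92). The log2 fold change was lower than there for Acpp (-4.85), Il1rap (-3.78), Gmnn (-2.94), Nceh1 (-2.49) and Lbh (-3.66). Groups of 3 libraries are too small for a search for outlying libraries.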

How the results depend on the processing

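Of 732 genes changed by CKI (342 higher, 390 lower), DESeq2 called 1571 (761 and 810), a fit with the replicate number as a block 339 (171 and 168) and a fit of only the 6 libraries 2 (2 and 0). Leaving out 1 library gave 233 to 923 genes, 127 to 422 higher and 106 to 501 lower. RLE scaling gave 724, upper quartile scaling 709 and no filter 611.

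For the 58 differences from Braf (21 and 37) the counts were 264 with DESeq2 (132 and 132), 31 with the block (10 and 21), 5 with only the groups compared (1 and 4), and 19 to 77 without 1 library (5 to 35 and 12 to 42). For the 42 from Braf Arid1a knockout (21 and 21) they were 340 (158 and 182), 17 (8 and 9), 6 (4 and 2) and 19 to 91 (7 to 42 and 9 to 49), and upper quartile scaling gave 13 higher. The cause was not tested, beyond the fewer libraries in the smaller fits.

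Same-numbered libraries did not deviate together (correlations of -0.102 and -0.136 for numbers 1 and 2). Libraries with unlike numbers had correlations of -0.367 to 0.366. With only numbers 1 and 2 shared, these values cannot decide whether the numbers pair libraries. Of 142 named genes, some of which had no call to lose, 39 lost their call under the block. In the fit of 6 libraries 116 lost it, and Aox3 and Nppc were the only genes called there. The thyroid score difference of 1.19 ranged from 0.884 to 1.48 over its alternatives. Direction turned in some fits without 1 library for Dio2 (-0.433 to 0.397), Duox1 (-0.511 to 0.572), Epha4 (-0.176 to 1.13), Glis3 (-0.303 to 1.06), Phlda1 (-0.261 to 0.34), Slc5a5 (-0.363 to 0.492) and Slc5a8 (-0.451 to 1.86), none of them called. The simulations show that most 2-fold changes cannot be found with 3 libraries in each group.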
